A study of Mus musculus with 7 samples.

Results

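The axon guidance genes described here are 41 genes of the Slit-Robo, netrin, semaphorin and ephrin systems, of which 23 encode receptors and 18 encode ligands. They were chosen by name with earlier results of these data known, so their share with a position is not evidence of enrichment. Of the 41, 27 (65.9%, 49.4 to 79.9) held at least 1 Argonaute crosslink position on the gene's own strand, beside 22.1% of all protein-coding genes. These 27 genes held 78 of the 14054 positions in the deposited table. Of the 27, 3 held a site listed for miR-216, each in 2 libraries, beside 6.84% of all protein-coding genes with a position. In the PAR-CLIP assay used, cells take up the uridine analogue 4-thiouridine, which ultraviolet light (365 nm here) bonds to RNA-binding proteins, and immunoprecipitation then recovers the bound fragments. The tissue was CD-1 mouse retina of postnatal day 0, held as explants for 24 h in 0.1 mM 4-thiouridine, with 6 retinas pooled for a library. Argonaute, the protein that microRNAs guide to their targets, was precipitated with monoclonal antibody 2A8 in 5 libraries, and IgG took the antibody's place in 2 control libraries, both from the same kind of explant. What was deposited is pooled over the Argonaute libraries: each position carries the number of libraries that share it, from 2 to 5. IgG libraries, and Argonaute libraries one by one, were not analysed here, so no comparison could be tested against the spread between replicates, read depth is unknown, and the exact 95% intervals below cover counting error only. Positions in 1 gene are not replicates.

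Growing axons are steered by secreted and membrane-bound ligands that attract or repel them through receptors on the growth cone. In the retina, netrin-1 acts through Dcc to bring ganglion cell axons into the optic nerve, and Slits act through Robo receptors to keep these axons in their layer and on their path. Ephrins and Eph receptors set up the map of the retina in the brain, and class 6 semaphorins with A-type plexins order the synaptic layers of the inner retina, where amacrine cells connect.

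Marker genes were set beside the tissue label, with lists chosen when earlier results were known. Of 22 retinal transcription factors, 16 held a crosslink position (72.7%, 49.8 to 89.3), beside 22.1% of all protein-coding genes. Of 20 genes of pigment epithelium, vessels, immune cells, astrocytes and stroma, 2 did, Kdr and Pdgfra (10%, 1.23 to 31.7), an interval that holds the 22.1%, so these genes are not shown to be below it. Retina is a mixture, so fewer cells of a type and less RNA per cell cannot be told apart in any count below. A position enters the table only where it was seen in at least 2 libraries, so the lack of one does not show a lack of binding.

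MicroRNAs pair with their targets mainly through their seed, so exonic crosslinks with a seed match beside them are shown first. A match here is the complement of bases 2 to 8 of the microRNA (7mer-m8), or the same followed by A (8mer), that starts from 1 nt before to 3 nt after the crosslinked T, on the transcript strand. Such a match describes the sequence and does not show that a microRNA acted there. Sequence was read from annotated transcripts, so introns had none. Of the 36 exonic positions of the guidance genes, 13 had such a match (36.1%, 20.8 to 53.8), in 9 genes, with 15 matches because 2 positions held overlapping matches of 2 families. Over all 10939 exonic positions with sequence the share was 26.6%. In a window of equal width that starts 20 to 16 nt before the crosslink, 1 of the 36 positions had a match (2.78%, 0.0703 to 14.5), beside 2.69% of all exonic positions; that 1, in Robo2, reads the match of a neighbouring crosslink. The matched microRNAs belong to 10 of 42 families searched; miR-124, miR-122 and miR-145 were not searched. Their mature sequences, from RefSeq on GRCm38.p6, are given with the seed (bases 2 to 8) in capitals and the letters searched follow from these. No 2 of the 10 share a seed, but the matches of miR-16 and miR-103, and those of miR-181 and miR-23, can overlap.
mmu-miR-17-5p: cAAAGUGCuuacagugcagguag
mmu-miR-101a-3p: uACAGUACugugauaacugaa
mmu-miR-16-5p: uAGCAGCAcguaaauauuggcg
mmu-miR-103-3p: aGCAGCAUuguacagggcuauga
mmu-let-7a-5p: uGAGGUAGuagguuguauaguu
mmu-miR-181a-5p: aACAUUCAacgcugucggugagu
mmu-miR-23a-3p: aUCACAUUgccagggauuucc
mmu-miR-30a-5p: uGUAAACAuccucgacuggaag
mmu-miR-182-5p: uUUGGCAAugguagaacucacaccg
mmu-miR-183-5p: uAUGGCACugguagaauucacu

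The sequences at the crosslinks follow, read 5′ to 3′ on the transcript strand (mm10, GENCODE M21), with 10 nt upstream of the crosslink and 15 nt downstream. The crosslinked T is base 11 of each, and capitals mark the match, 8 of them where it is an 8mer. Of the 15 matches 14 are printed; the sequence of the let-7 match in Dcc is not given here.
Epha4, miR-17 family, chr1:77373670-77373695, minus strand: acctcatccatGCACTTTAattgaag
Robo2, miR-101, chr16:73895291-73895316, minus strand: gggagttttctGTACTGTAagttagg
Epha7, miR-103 family, chr4:28964065-28964090, plus strand: acgcatagaATGCTGCtagaagacag
Epha7, miR-15/16 family, chr4:28964065-28964090, plus strand: acgcatagaaTGCTGCTAgaagacag
Plxna2, let-7, chr1:194810898-194810923, plus strand: aagatatgaatgcCTACCTCgcggag
Plxna2, miR-101, chr1:194816807-194816832, plus strand: ggacacaatttGTACTGTtgttatat
Plxnc1, miR-15/16 family, chr10:94791968-94791993, minus strand: tcccaaattttTGCTGCTcgtgacca
Plxnc1, miR-30, chr10:94792925-94792950, minus strand: aacagcctcctTGTTTACAgagaata
Robo1, miR-182, chr16:73024260-73024285, plus strand: acatggaagTTGCCAAAatgcagacc
Robo2, miR-181, chr16:73895312-73895337, minus strand: gaagaaaagatTGAATGTgaagggag
Robo2, miR-23, chr16:73895312-73895337, minus strand: gaagaaaagattgAATGTGAAgggag
Robo2, miR-183, chr16:73895420-73895445, minus strand: tgggctgtgGTGCCATAtattaactt
Sema3a, miR-15/16 family, chr5:13602491-13602516, plus strand: tgtaacgatatTGCTGCTgtaaatta
Sema4b, miR-17 family, chr7:80226346-80226371, plus strand: tttaataagatGCACTTTActttctt

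The same families matched at genes of different roles. The miR-15/16 family matched at Plxnc1, Epha7 and Sema3a, a plexin, an Eph receptor and a secreted semaphorin. The miR-17 family matched at Epha4 and Sema4b with the same 8mer, 1 nt after the crosslink. The miR-101 family matched at Robo2 and Plxna2, both 1 nt after it, and let-7 matched at Dcc and Plxna2, both in coding sequence. Among all exonic positions, the miR-17 family had 292 matches at this distance, miR-181 had 278, miR-15/16 had 258, let-7 had 182 and miR-101 had 80. Families with 0 matches at guidance genes but many in the whole table were miR-130 with 290, miR-19 with 247, miR-26 with 220 and miR-9 with 179. Shares of this size, 2.65% at most, are not resolved by 36 positions. Of the guidance positions, 9 (25%) had a match that started exactly 1 nt after the crosslink, beside 18.9% of all exonic positions.

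**Figure D1:**
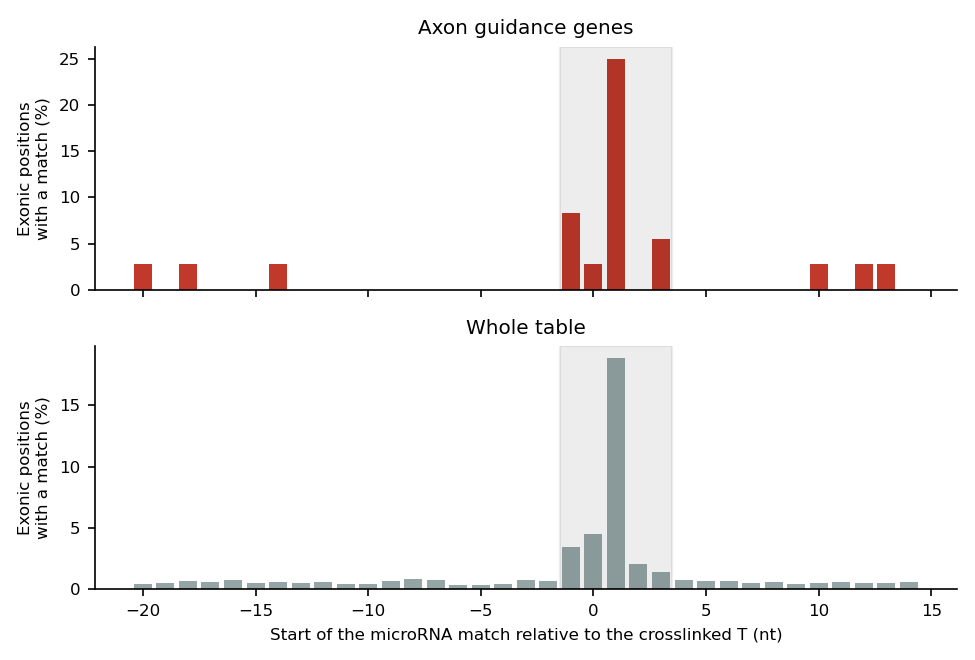
Share of exonic crosslink positions (%) with a 7mer-m8 match that starts at each distance (nt) from the crosslinked T, for 36 positions of axon guidance genes (top) and 10939 of the whole table (bottom); each bar is a share over positions and the grey band marks starts from 1 nt before to 3 nt after. Both panels are highest at 1 nt after the crosslink, with 25% at the top and 18.9% at the bottom.

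Receptors held most of the positions. Of the 23 receptor genes, 18 had a position (78.3%, 56.3 to 92.5), with 59 positions in all, against 9 of 18 ligand genes (50%, 26.0 to 74.0), with 19 positions. The intervals overlap, and over the 22028 protein-coding genes 22.1% held a position. Both roles come from genes chosen with earlier results known, which limits the comparison with that share. Guidance genes are long, with a median span of 156 kb over all 41, beside 17.3 kb over all protein-coding genes, and of 199 kb over the 27 with a position, beside 42.9 kb over protein-coding genes with one. Per length, exons of receptors held 0.104 positions per kb and those of ligands 0.0643, beside 0.108 over all protein-coding genes. Introns of receptors held 5.53 positions per Mb, or 4.71 without Dcc, and those of ligands 2.35, beside 2.50 over all protein-coding genes. The difference between roles was not seen in every system. Introns held 9.07 per Mb in Eph receptors and 9.31 in ephrins, with 0.0794 and 0.114 per kb in their exons. Robo introns held 3.24 per Mb and Slit introns 2.95, while plexins held 3.60 and semaphorins 1.30. In the netrin system Dcc held 9.22, Unc5 receptors 1.94 and Ntn1 0, and the neuropilins held 0. Among ligands, the 8 secreted ones had 3 genes with 5 positions, 4 of them intronic, and the 10 bound to the membrane had 6 genes with 14 positions, 5 of them intronic. Of the guidance genes with a position, 10 had 1, 9 had 2 and 4 had 3 or 4. The receptors Dcc, Plxna2, Robo2 and Epha5 had 8 or more each, which together made 36 of the 78. The median was 2 positions per gene with any, in receptors and in ligands alike, the same as over all 4867 protein-coding genes with a position.

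**Figure D2:**
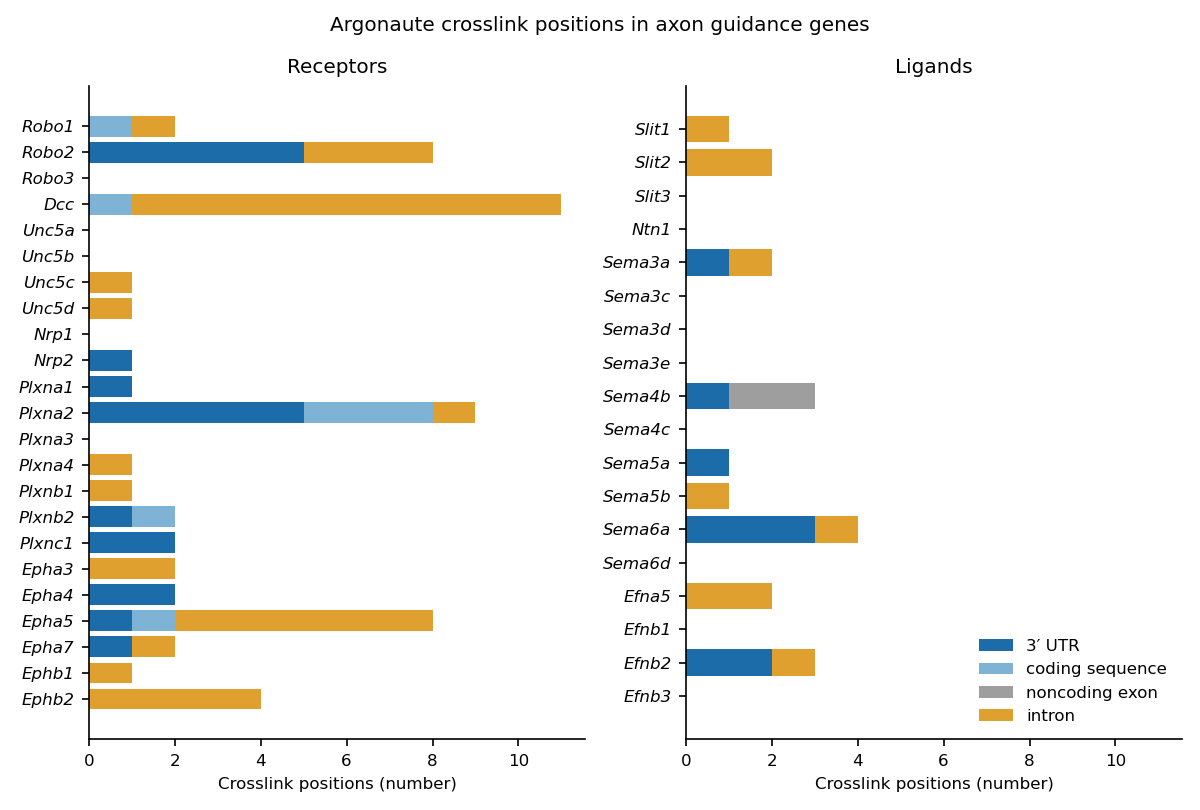
Number of crosslink positions in each of the 23 receptor genes (left) and 18 ligand genes (right), coloured by the part of the gene they lie in. Dcc has the longest bar, 11 positions of which 10 are intronic, and 14 genes have none.

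Intronic positions made up 42 of the 78 (53.8%, 42.2 to 65.2), beside 18.7% of all positions in annotated genes. The other 36 were 27 in 3′ UTRs (34.6%, beside 54.3%), 7 in coding sequence (8.97%, beside 21.6%) and 2 in a noncoding exon of Sema4b. No position fell in a 5′ UTR or was shared with another gene on the same strand. The share was 55.9% (42.4 to 68.8) in receptors and 47.4% (24.4 to 71.1) in ligands. In the whole table this share was higher in genes with long introns. Between the 2 roles, whose intervals overlap, it did not follow length. The median intron length per gene was 167 kb over ligands and 146 kb over receptors. Among genes with at least 100 kb of intron, a limit chosen after the data were seen, 40 of 68 guidance positions were intronic (58.8%, 46.2 to 70.6), beside 45.3% of 3673 positions in all such genes. Without Dcc it was 30 of 57 (52.6%, 39.0 to 66.0), an interval that holds the 45.3%. Dcc was left out of the guidance genes only, here and elsewhere. The 45.3% keeps every gene, such as Auts2 with 27 intronic positions, so the 2 shares are not trimmed alike. Among genes of that size, 22 of 29 guidance genes held a position (75.9%, 56.5 to 89.7), beside 47.3% of 2262, and their introns held 4.21 positions per Mb, or 3.56 without Dcc, beside 2.80. These differences were not tested, and the guidance genes were chosen with earlier results known. Of the 9 guidance positions found in 3 or more libraries, 3 were intronic (33.3%), 2 of them in Dcc. In the whole table, 226 intronic and 3254 exonic positions were in 3 or more libraries, so the intronic share is lower there too at that level. It lies well below the 33.3% of the guidance positions, which rests on 3 positions. The part of intron length in the intronic share was not tested further.

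Most intronic positions lay in introns 1 to 3, and Dcc alone held 10 of the 42. Of the 42, 18 lay in the first intron (42.9%, 27.7 to 59.0), beside 33.2% over all intronic positions. Of these 18, 9 lay in the first intron of Dcc, and without Dcc the share was 9 of 32 (28.1%, 13.7 to 46.7), below the 33.2%, which both intervals hold. Introns 1 to 3 held 35 of the 42 (83.3%, 68.6 to 93.03), and 26 of 32 without Dcc (81.2%, 63.6 to 92.8), beside 60.5%. The median length of the intron was 127 kb, or 77.9 kb without Dcc, beside 52.3 kb, and the median distance to the nearest exon of the transcript was 26.2 kb, or 20.6 kb without Dcc, beside 8.64 kb. Only 1, in intron 16 of Plxnb1, lay within 1000 nt of an exon, at 585 nt, beside 16.2% of all intronic positions. By gene, 11 guidance genes held intronic positions only, 7 exonic only and 9 both, while 12.4% of all protein-coding genes with a position had intronic positions only.

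**Figure D3:**
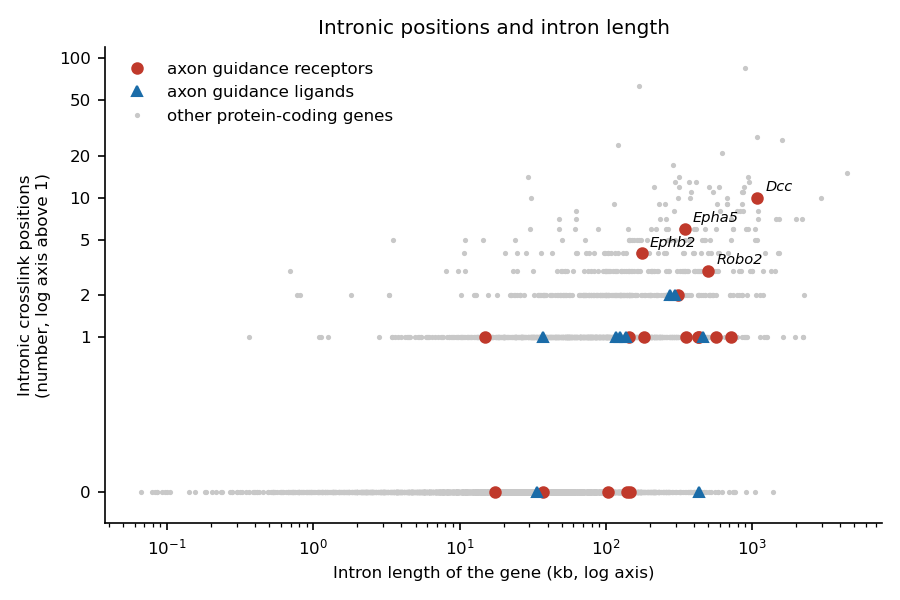
Intronic crosslink positions per gene (log axis above 1) against the summed intron length of the gene (kb, log axis), for protein-coding genes with any position; red circles are receptors, blue triangles ligands and grey dots other genes. Dcc (10), Epha5 (6), Ephb2 (4) and Robo2 (3) are the labelled guidance genes, and other genes with introns as long reach higher and lower counts.

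Few positions recurred in many libraries. Of the 78, 69 were found in 2 libraries, 5 in 3, 3 in 4 and 1 in 5, so 9 (11.5%, 5.41 to 20.8) were in 3 or more, beside 25.6% over the whole table. Intronic positions recur less in the whole table, so the 2 kinds are given apart. Of the exonic positions 6 of 36 (16.7%, 6.37 to 32.8) were in 3 or more libraries, beside 29.6%, and of the intronic positions 3 of 42, or 7.14% in 3 and 0 in 4 or 5, beside 8.97% in 3 or more. By gene, 7 of the 27 had a position in 3 or more libraries, beside 43.2% of all protein-coding genes with a position, and 4 had one in 4 or 5, beside 20.5%. Receptors held 8 of these 9 positions and the ligand Sema6a held 1. Of the 6 exonic positions in 3 or more libraries, 3 had a seed match just after the crosslink, in Epha4, Dcc and Robo2, beside 40.1% of such positions in the whole table.

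**Figure D4:**
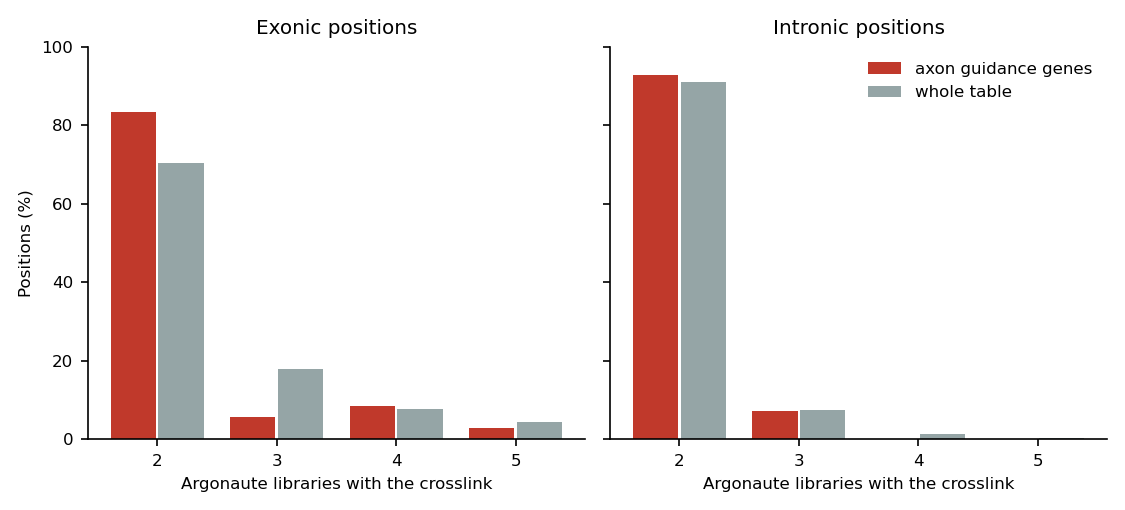
Share of positions (%) found in 2, 3, 4 or 5 Argonaute libraries, for exonic (left) and intronic (right) positions, in axon guidance genes (red, 36 exonic and 42 intronic) and in the whole table (grey, 10992 and 2520). The bar for 2 libraries is the highest in each group, at 83.3% and 70.4% for exons and at 92.9% and 91.0% for introns.

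In the Slit-Robo system, Robo2, a receptor for Slits that guides retinal axons, had a cluster in its 3′ UTR. The gene had 8 positions, 5 of them in the 3′ UTR within 236 nt, from 284 to 520 nt into a UTR of 3987 nt. The one at 73895306 on chromosome 16 was found in 3 libraries and the other 4 in 2. Of the 5, 3 had a seed match, for miR-101, for the overlapping pair of miR-181 and miR-23, and for miR-183, a microRNA abundant in photoreceptors. The 2 crosslinks at 73895306 and 73895327 lay 21 nt apart, each with its own match. The other 3 Robo2 positions were intronic, in 2 libraries each, and 2 of them shared intron 2, which is 306 kb long. Robo1, the other main Slit receptor, had 2 positions in 2 libraries each, a deep intronic one and one in coding sequence of exon 25 of 29, where an 8mer for miR-182 began 1 nt before the crosslink. Robo3, known for commissural axons, had none.

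The Slit genes had intronic positions only, each in 2 libraries: 1 in Slit1 and 2 in Slit2, with none in Slit3. Slit2 and Slit3 carry the genes of miR-218 in their introns, and miR-218 is known to act on Robo receptors. The nearest Slit2 position lay 41.6 kb from the Mir218-1 hairpin. No exonic guidance position had a miR-218 match within 20 nt of its crosslink, and over all exonic positions 1 had one just after the crosslink.

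In the netrin system, Dcc, the receptor for attraction by netrin-1, had the most positions of all 41 genes, with 11; 2.51% of protein-coding genes with a position had as many or more. Of the 11, 10 were intronic, 9 in the first intron of 395 kb, spread from 36013 to 194620 nt from the nearest exon, and 1 in intron 5. The intronic ones were found in 2 libraries, apart from 2 in the first intron found in 3. Dcc held 9.22 intronic positions per Mb of intron, and 30 protein-coding genes, itself among them, had as many intronic positions or more. Per Mb it was not the highest guidance gene. Ephb2 held 22.7 and Epha5 17.3, and Plxnb1 and Efnb2 held 66.9 and 27.1 on 1 intronic position each. The only exonic position, in coding sequence of exon 10 of 29, was found in 4 libraries and had an 8mer for let-7 starting 1 nt after the crosslink. Of the Unc5 receptors, which turn netrin into a repellent, Unc5c and Unc5d had 1 intronic position each, in 2 libraries, in the first intron, and Unc5a and Unc5b had none. Netrin-1 itself, Ntn1, had none.

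In the semaphorin system the positions were mostly exonic, 22 of 28, with 6 intronic (21.4%, 8.30 to 41.0). Plxna2, a receptor for class 6 semaphorins, had 9 positions, 5 in the 3′ UTR, 3 in coding sequence and 1 in intron 4, and the highest exonic density of the receptors, 0.466 per kb. Its position at 194813327 on chromosome 1, 1166 nt into the 3′ UTR, was found in 4 libraries and the other 8 in 2. That position had none of the matches searched, while a position 4656 nt into the UTR had a miR-101 match and a coding one in exon 31 of 32 a let-7 match. Plxnc1, a receptor for Sema7a, had 2 positions in its 3′ UTR, both in 2 libraries and both with a match 1 nt after the crosslink, an 8mer for miR-30 at 246 nt and a 7mer for miR-15/16 at 1203 nt. Plxna1 had 1 position, in its 3′ UTR and in 3 libraries, with no match. Plxnb2, a receptor for class 4 semaphorins, had 1 in coding sequence and 1 in its 3′ UTR, and Plxna4 and Plxnb1 had 1 intronic position each, all of these in 2 libraries. Plxna3 had none. Of the neuropilins, co-receptors for class 3 semaphorins, Nrp2 had 1 position in its 3′ UTR in 2 libraries and Nrp1 had none.

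Among semaphorins, Sema6a, a membrane-bound ligand of A-type plexins, had 4 positions, 3 in the 3′ UTR, from 1251 to 1445 nt into it, and 1 in the first intron. The middle one of the UTR, 1404 nt into it, was in 4 libraries, and the others were in 2. None of the 3 had a match of the families searched. Sema4b had 3 positions in 2 libraries, of which 1, in the 3′ UTR 1021 nt into 1192, had the miR-17 family 8mer shown above. Sema3a, a secreted repellent, had 1 position near the end of its 3′ UTR, at 2898 nt of 2962, with a miR-15/16 match, and 1 in an intron. Sema5a had 1 in its 3′ UTR, Sema5b 1 in its first intron, and Sema3c, Sema3d, Sema3e, Sema4c and Sema6d had none.

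In the ephrin system, all 6 Eph receptors had a position, and 14 of their 19 were intronic (73.7%, 48.8 to 90.9). Epha4, which binds ephrins of both classes, held the only guidance position found in all 5 libraries, at 77373685 on chromosome 1, 48 nt into the 3′ UTR in exon 17 of 18, with the miR-17 family 8mer 1 nt after it. Over all positions, 3.47% were in 5 libraries. Its other position, 1071 nt into the 3′ UTR, was in 2 libraries. Epha5, an ephrin-A receptor of the retinal map, had 8 positions, all in 2 libraries: 6 in introns 1 to 3, 1 in coding sequence and 1 in the 3′ UTR. Ephb2, which guides ganglion cell axons of ventral retina, had 4 positions, all intronic and in 2 libraries, 3 of them in intron 3. Epha7 had 1 in an intron and 1 at 72 nt of the 3′ UTR, where matches of miR-15/16 and miR-103 overlap. Epha3 had 2, both in intron 3, 1 of them in 3 libraries, and Ephb1 had 1. Of the ephrins, Efnb2, a ligand of EphB receptors, had 2 positions in its 3′ UTR and 1 in its first intron, Efna5, an ephrin-A of the retinal map, had 2 in introns, all in 2 libraries, and Efnb1 and Efnb3 had none.

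The place within 3′ UTRs is given beside that of all positions. The median lay 1166 nt from the start of a UTR whose median length was 3310 nt, beside 972 nt and 2733 nt in the whole table, and 8 of 27 (29.6%, 13.8 to 50.2) lay in the first 500 nt, beside 31.2%. Of the 3′ UTR positions 10 of 27 (37.0%) had a seed match just after the crosslink, beside 29.4%. Among coding positions, where the whole table had 22.7%, those with a match were in Robo1, Dcc and Plxna2. By role, 11 of 26 exonic positions of receptors (42.3%, 23.4 to 63.1) and 2 of 10 of ligands (20.0%, 2.52 to 55.6) had a match.

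The series asks about Argonaute sites with seed matches of miR-216a and miR-216b, and about amacrine cell formation, so the 3 guidance genes with a listed site are shown with the microRNAs. Seeds are in capitals in the microRNAs.
mmu-miR-216a-5p: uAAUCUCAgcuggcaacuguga
mmu-miR-216b-5p: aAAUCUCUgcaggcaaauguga
In the sites, capitals mark the deposited interval, with 8 nt on either side.
Epha5, site at chr5:84331535-84331540, minus strand: cagaggtcAGAGATgtcggacc
Plxnb2, site at chr15:89156999-89157005, minus strand: cacttggcAGAGATTtcccgggc
Sema4b, site at chr7:80213973-80213980, plus strand: gactacatAGAAGATTgatggact

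Of the 27 genes with a position these are 3, beside 6.84% of all protein-coding genes with a position, and each site had its crosslink in 2 libraries. Plxnb2 carried a full 7mer-m8 match of miR-216b in coding sequence, which started 12 nt after its crosslink at 89157017 on chromosome 15. Epha5 carried an offset 6mer of miR-216b in coding sequence of exon 3, which started 7 nt before its crosslink at 84331533 on chromosome 5. The Sema4b site, in the noncoding exon and starting 10 nt after its crosslink, held neither a 7mer-m8, nor the 6mer, nor an offset 6mer of either microRNA. Its interval reads as the 7mer-m8 of miR-216b with 1 further A inside it. The deposited entries name miR-216b for the Epha5 and Sema4b sites. They name miR-216a/b for that of Plxnb2, which also holds the 6mer of miR-216a. None of the 3 started within 3 nt after a crosslink. In the whole table, 19 exonic positions had a miR-216a match at the distance used for the other families and 1 had one of miR-216b. In the window of equal width before the crosslink, 8 had a miR-216a match and 15 one of miR-216b, so miR-216b matches were fewer just after crosslinks.

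Guidance genes outside the 41 were counted from lists chosen by name. Of 36 paralogs in the same families and related ligands and receptors, 8 held a position (22.2%, 10.1 to 39.2), a share at the 22.1% of all protein-coding genes, with 13 positions, of which 5 were intronic and 2 were in 3 or more libraries. They were Neo1, Dscam, Dscaml1, Plxnd1, Sema4d, Sema6c, Sema7a and Efna2. The 41 genes and both lists were chosen with earlier results in view. The shares of the 41, of the paralogs and of the signalling genes that follow are therefore not evidence about the pathway. The paralogs are those that the 41 left out, so their share is not a neutral rate for the families. Of 47 genes that pass guidance signals on inside the growth cone, 33 held a position (70.2%, 55.1 to 82.7), beside the same 22.1%. Of their 124 positions, 32.3% (24.1 to 41.2) were intronic, beside 18.7%, and 27.4% (19.8 to 36.2) were in 3 or more libraries, near the 25.6% of the whole table. The most, 14, were in Gsk3b, a kinase that acts on microtubules, while Srgap3, which binds Robo receptors, had 12, and Rasa1, a Ras inhibitor, had 8. Chn2, a Rac inhibitor, and Dpysl2, which carries semaphorin signals to microtubules, had 7 positions each. Those of Chn2 were all intronic and in 2 libraries, while none of those of Dpysl2 were intronic and 3 were in 3 or more libraries.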

How the data were processed

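PAR-CLIP libraries were made with an Argonaute antibody (5) or IgG (2) from pooled retinal explants. Per the submitters' processing notes, the tools were CASAVA 1.8.2, STAR and bedtools, on mm10. The calling of crosslinks is not given in the sources used here. Each deposited score counts, per the file headers, the samples in which the authors found a crosslink. The miR-216 table has no header: each of its 404 deposited entries (394 distinct sites) had a crosslink of equal score within 15 nt, so its score was read the same way.

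Positions were assigned on the same strand to GENCODE M21 genes (mm10), with a 3′ UTR taken before coding sequence, then 5′ UTR, other exons and introns; UTRs and coding sequence came from protein-coding transcripts, a choice made after a first count. All 10939 positions with transcript sequence fell on T, the base that 4-thiouridine replaces, which checks build and strand. Seeds came from RefSeq (42 of 45 listed families, 3 of them through a member chosen once the table was seen). Shares have exact 95% Clopper-Pearson intervals (scipy 1.17.1); counts are set beside the whole table, with no test, since no values per library were used. Close neighbours are separate positions. Scripts were tested on simulated data: 200 of 200 planted matches were found.

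Described in full are the 12 genes with most positions (ties by symbol), and those with a position in 4 or 5 libraries, a seed match or a miR-216 site. Members, lists and rules were chosen with earlier results of these data known. Alternatives changed the libraries required, merging, class order, transcripts, genes and match type.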

Additional observations from a re-analysis of the deposited data

How the results depend on the processing

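Most summary values stayed within the counting interval of the value reported, or for counts within 1.5 times of it: 28 of 34 alternatives did, some of which could not have moved, as given below. Requiring 3 or more libraries moved 5 of the other 6. Positions fell to 9, of which 88.9% were in receptors and 33.3% were intronic. The intronic share of the whole table is also lower at that level, with 226 intronic and 3254 exonic positions, and lies well below the 33.3%. The miR-216 sites fell to 0, and the other guidance genes with a position fell to 19, against 41 of 83 in the 2 lists together. Each of the 16 genes described in full had at most 3 positions at that level, and all 16 of these counts moved. With secreted ligands only, receptors held 92.2% of positions, against 75.6%. Merging positions within 10 nt changed no count and could not, since the closest positions lay 19 nt apart. Keeping only positions in 1 gene could change nothing either, since none was shared with another gene. Class order cannot change the number of positions, their role or the intronic share. Families of other tissues had no match at guidance positions, so leaving them out could not lower the seed share. Without Dcc, the gene with the most positions, 47.8% of 67 positions were intronic and 8.96% were in 3 or more libraries. With transcripts of the basic set the intronic share was 55.1%. The share of exonic positions with a seed match was 27.8% with starts 0 to 2 nt after the crosslink (23.7% in the whole table), 25% for 8mers (14.7%), 47.2% for 6mers (39.5%) and 41.7% anywhere in 20 nt on either side (37.9%). The place in introns without Dcc is given with those values; it moved the median intron length by over 1.5 times, to 77.9 kb, and put the share in the first intron below that of the whole table. This setting for introns, the limit of 100 kb of intron and the split by 3′ UTR were chosen after the data were seen. The share in 3 or more libraries was not recomputed for such positions alone, since it is then fixed. No paired analysis was possible because only pooled values were used, and no replicate could be left out for the same reason. Positions seen in 1 library are not in the table, and what depth limits could not be measured, since it is unknown.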
